A study of Mus musculus with 3 samples.

Results

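Among hair placode cells of the mouse embryo, the cells richest in transcripts of Wif1 were set against the cells with no Wif1 transcript. Both classes were taken from the 2 placode-enriched libraries by counts of unique molecular identifiers (UMIs), each of which marks 1 captured RNA molecule. A cell was counted as placode when Dkk4, Edar, Fgf20, Bmp2 and Ltb together reached 4 or more UMIs per 10000 and the suprabasal genes Krt1, Krt10 and Krtdap together stayed under 5 per 10000. Of these gated cells, those with 2 or more Wif1 UMIs per 10000 were called Wif1-high and those with 0 Wif1 UMIs Wif1-negative, and the cells between were called Wif1-intermediate. After removal of called doublets this gave 319 Wif1-high, 383 Wif1-intermediate and 388 Wif1-negative cells among 1090 gated cells, out of 3073 cells of the 2 libraries and 4665 cells of the series. The cells were thus chosen by measured values of these 9 genes, so they are described here and not tested.

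Wif1 encodes Wnt inhibitory factor 1, a secreted protein that binds Wnt ligands and keeps them from their receptors. Hair placodes are small thickenings of the embryonic epidermis that form under Wnt/beta-catenin and ectodysplasin signals and grow down to make the hair follicle. Placode cells send out Fgf20, Shh and several Wnt antagonists, so that signal, inhibitor and read-out genes can be measured in the same small group of cells.

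All cells came from dorsal skin epithelium of WT embryos of strain C57BL/6JOlaHsd at E14.5, a stage given in days of embryonic life, with sheets of 3 to 4 littermates pooled per sample. Cells positive for the adhesion molecule MAdCAM-1 were sorted for the 2 placode-enriched libraries, which the series design calls biological replicates, and live epithelial cells for the 1 total epithelium library. The Wif1 classes are cuts through a measured range of cells of the same embryos, not separate treatments, and no lineage or position label tells what else sets them apart. The libraries held 1504, 1569 and 1592 kept cells with a median of 21652 to 23419 UMIs per deposited cell, and 1 or 2 cell barcodes were shared between any pair of libraries.

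The gate took 35.4% and 35.5% of the cells of placode-enriched libraries 1 and 2, and 2.20% (35 cells) of the total epithelium library. Wif1-high cells were 28.5% of gated cells in library 1 (95% exact binomial interval 24.7 to 32.6, counting error only) and 30.0% in library 2 (26.2 to 34.0). Wif1-negative cells were 36.8% and 34.5%. Their median Wif1 level was 3.26 per 10000 in Wif1-high cells of both libraries, with highest values of 12.1 and 10.3. At the limit, the lowest Wif1-high cells stood at 2.02 and 2.0005 and the highest Wif1-intermediate cells at 1.99 and 1.98, so the cut passes through a continuous range. The gate was as gradual, with its lowest cells at 4.03 and 4.03 and the highest cells outside at 3.98 and 3.99.

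**Figure D1:**
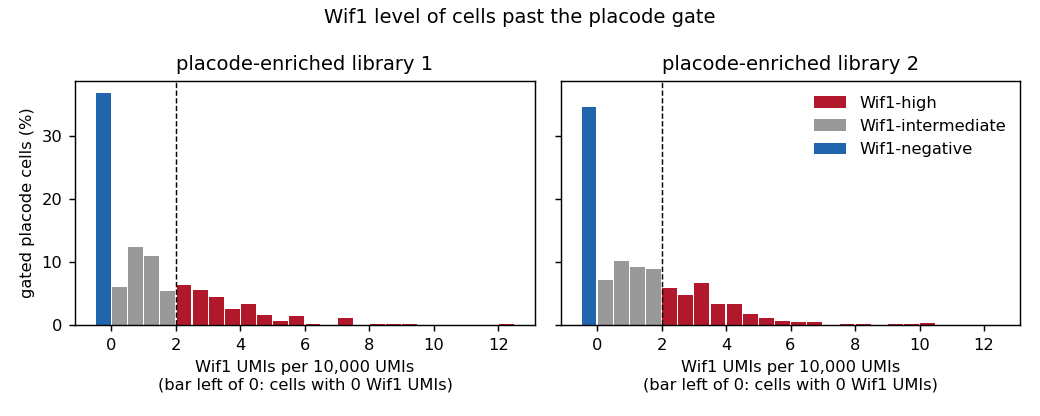
Wif1 UMIs per 10000 UMIs (x axis) against the share of gated placode cells (y axis, %) in each placode-enriched library, in bins of 0.5 with cells at 0 as a bar of their own. No gap separates Wif1-intermediate from Wif1-high cells at the dashed limit of 2, and Wif1-negative cells form the tallest bar at 36.8% and 34.5%.

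A cell with 0 Wif1 UMIs need not lack the transcript. With each cell thinned to 5000 UMIs, a Wif1 UMI was left in 35.1% and 40.0% of gated cells, against 63.2% and 65.5% at full depth. As a background, 6.62% of the 1314 cells past the suprabasal limit in the total epithelium library had a Wif1 UMI, at a median depth of 21904 UMIs, and gated cells there were at 48.6% and 17258 UMIs. In the placode-enriched libraries the 56 and 60 cells past that limit were at 32.1% and 15%, at 27802.5 and 30496 UMIs. They had passed the same MAdCAM-1 sort.

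The placode label was checked on the 4 placode markers that the gate did not use (Shh, Wnt10b, Lhx2 and Madcam1). They summed to 299.1 and 299.2 CPM (UMIs of a gene per 1000000 UMIs of the class) in Wif1-high cells of libraries 1 and 2 and to 195 and 178 CPM in Wif1-negative cells, against 48.0 and 48.1 CPM in cells outside the gate. With the 5 gate genes added the sums were 1728 and 1682 CPM in Wif1-high and 1767 and 1540 CPM in Wif1-negative cells, which the gate itself sets apart from the rest. The 7 basal epidermis markers summed to 2963 and 2647 CPM in Wif1-high and 3170 and 2840 CPM in Wif1-negative cells, against 4969 and 4727 outside. Madcam1, the sorting antigen, was at 80.0 and 74.3 CPM in Wif1-high cells and 71.7 and 58.1 CPM in Wif1-negative cells, and its log2 fold change of 0.16 ± 0.11 (SE) was not past the threshold. Before matching, Wif1-high cells had fewer UMIs (median 18412.5 and 19823, against 20603 and 21389.5) and less often a Mki67 UMI (48.7% and 53.3%, against 63.3% and 61.5%), Mki67 being a marker of cycling cells.

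Each Wif1-high cell was therefore paired with a Wif1-negative cell of the same library, with the same presence or absence of a Mki67 UMI and of nearly equal depth. This kept 131 and 145 pairs with median depths of 18766 and 20796 UMIs in Wif1-high and 19190 and 20757 UMIs in Wif1-negative cells, and with a Mki67 UMI in 53.4% and 58.6% of the cells of each class. Unless another setting or other cells are named, every value for the classes from here on is from these matched cells, summed per library. The fit with cells thinned to 5000 UMIs was not matched. It used all 152 and 167 Wif1-high and 196 and 192 Wif1-negative cells, so it differs from the main fit in both depth and Mki67 share.

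The genes that made the gate were not spread evenly over the matched classes. The ligand Ltb stood at 581 and 537 CPM in Wif1-high cells and 257 and 217 CPM in Wif1-negative cells, and the ectodysplasin receptor Edar at 130 and 125 CPM against 79.7 and 70.1 CPM. The secreted Wnt antagonist Dkk4 was at 500 and 488 CPM in Wif1-high cells and 787 and 645 CPM in Wif1-negative cells. The growth factor Fgf20 was at 86.0 and 78.3 CPM against 196 and 146 CPM, and Bmp2 at 148 and 174 CPM against 210 and 231 CPM. So Ltb and Edar were higher, and Dkk4, Fgf20 and Bmp2 lower, in the Wif1-high cells of both libraries. Since the gate adds these genes up, a cell rich in one needs less of another to enter, and these values are a description only.

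Wif1-high cells had 515 genes above and 545 genes under the level of Wif1-negative cells, of 9998 tested (edgeR's quasi-likelihood test with the library as a block, Benjamini-Hochberg adjusted p under 0.05), or 10.6% in all, 5.15% higher and 5.45% lower. The side was the same in both libraries for 513 of the higher and 542 of the lower genes, and for 5100 of 8938 genes not past the threshold. Called genes were chosen by these same 2 libraries, so their shared side adds nothing to the calls. The median absolute log2 fold change was 0.76 for the called higher genes and 0.33 for the called lower genes. Among the lower ones were 81 of 99 ribosomal protein genes, a list with a median of -0.19. The 2 called sets thus differ in kind, and why their medians differ was not tested. With library sizes alone as scaling the calls were 710 higher and 289 lower, so that 71.1% of calls were higher in place of 48.6%; the median of all genes then moved to 0.09 from 0.00. Without the library block 187 and 85 were left, and DESeq2 called 61 and 147, with no adjusted p for 250 of the 1060 genes. Each gene's own counts give only 2 libraries and 1 residual degree of freedom, so each p leans on a spread that edgeR pools over the tested genes. With the library as a block, that pooled spread is of the class difference between these 2 libraries. A gene whose libraries disagree can therefore still pass, as Cxcl10 did.

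**Figure D2:**
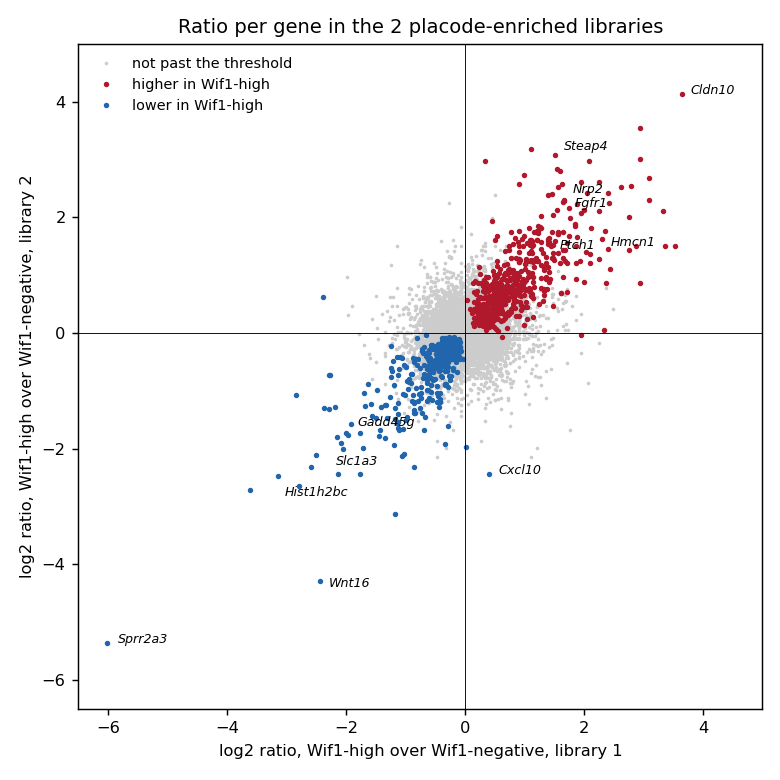
Log2 ratio of Wif1-high over Wif1-negative cells for each tested gene in library 1 (x axis) and library 2 (y axis), from CPM after TMM scaling plus 0.5. Genes past the threshold lie almost all at the upper right (515 higher) or the lower left (545 lower), Cldn10 and Sprr2a3 at the ends, while Cxcl10 is split between the libraries.

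The gene furthest up was Cldn10, a tight junction claudin that forms ion pores. It had 32.1 and 27.4 CPM (81 and 82 UMIs) in Wif1-high cells and 1.98 and 1.001 CPM (5 and 3 UMIs) in Wif1-negative cells, a log2 fold change of 4.22 ± 0.33 (SE by the fit to 2 libraries). Every SE given here is the absolute log2 fold change divided by the square root of the test's F. It carries the pooled spread and can be smaller than the spread of a gene's own 2 library ratios. A Cldn10 UMI was found in 29.0% and 27.6% of Wif1-high and 3.82% and 2.07% of Wif1-negative cells, with 5.36% and 1.67% in cells past the suprabasal limit. The gene lies on chromosome 14, 118787908 to 118875489 (GRCm38, plus strand). Most Wif1-high cells had no Cldn10 UMI at this depth.

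Receptors and adhesion genes stood beside it. Nrp2, a receptor for class 3 semaphorins and a co-receptor for VEGF (chromosome 1, 62703285 to 62818695, plus strand), had 112 and 140 CPM in Wif1-high cells and 33.3 and 26.0 CPM in Wif1-negative cells (2.01 ± 0.12, adjusted p = 7.93e-38). Fgfr1, an Fgf receptor (chromosome 8, 25513654 to 25575718, plus strand), had 75.7 and 71.6 CPM against 22.2 and 13.4 CPM (1.98 ± 0.15). The neural cell adhesion molecule Ncam1 was at 92.7 and 91.7 CPM in Wif1-high cells against 27.7 and 31.0 CPM, and the extracellular matrix protein Hmcn1 (hemicentin) at 55.5 and 70.3 CPM against 10.3 and 20.7 CPM. In all 4 genes both Wif1-high values were above both Wif1-negative values. The same held for 30.9% of all tested genes in CPM, which carries no TMM scaling, while both were under them for 11.6%. These 4 were picked by their fold change, so this separation adds nothing to it.

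At 20 CPM or more in the higher class, the other 10 genes with the largest increases ranged over log2 fold changes from 1.57 to 2.34. Limch1, an activator of non-muscle myosin, had 29.3 and 37.1 CPM in Wif1-high and 7.13 and 7.01 CPM in Wif1-negative cells. Kctd12, an auxiliary subunit of GABA-B receptors, had 68.1 and 66.2 CPM against 19.4 and 20.7 CPM, and the calcium-binding S100a6 64.6 and 74.3 CPM against 25.8 and 18.7 CPM. The others were the metalloreductase Steap4, the calcium sensor Cabp1, the patched-domain gene Ptchd4, the G protein subunit Gnb4, the Cdc42 exchange factor Fgd5, the collagen lysyl hydroxylase Plod1 and the scaffold Homer2. The calls of Plod1 and Homer2 were lost with thinned cells. Without cells rich in fibroblast transcripts they were lost as well.

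**Figure D3:**
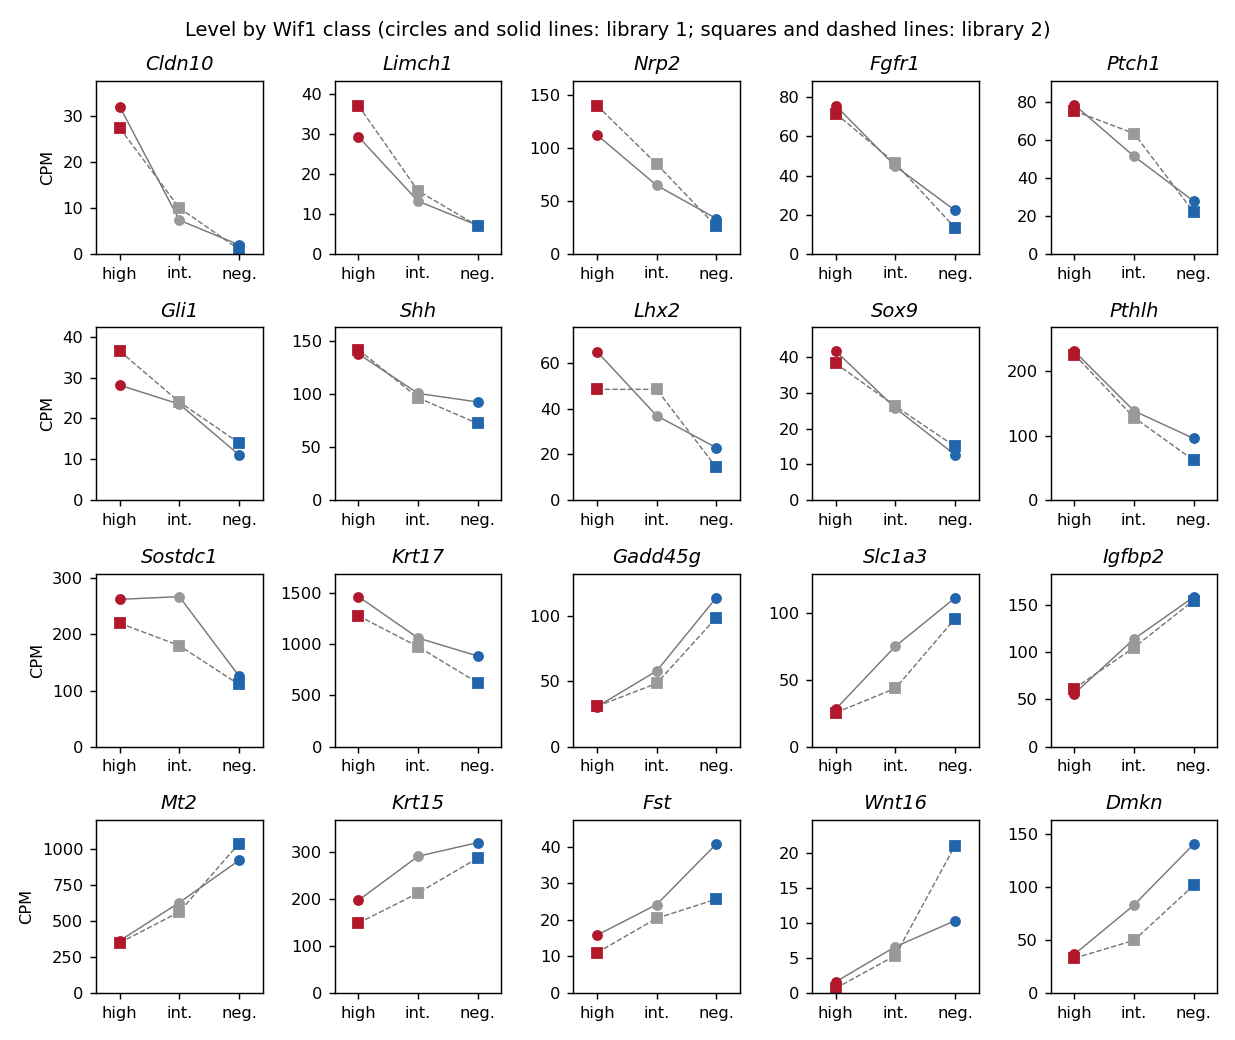
CPM (y axis, from 0, a scale per gene) in Wif1-high, Wif1-intermediate and Wif1-negative cells for 20 genes, with library 1 as circles and library 2 as squares. Wif1-high and Wif1-negative cells are matched and Wif1-intermediate cells are all those gated. In the first 12 panels both Wif1-high points lie above both Wif1-negative points, and in the last 8 panels both lie under them.

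Hedgehog genes divided into ligand and read-outs, which were higher, and the rest, which did not pass the test. Shh, the ligand made by placode cells (chromosome 5, 28456815 to 28467256, minus strand), had 137 and 142 CPM in Wif1-high cells and 92.3 and 72.1 CPM in Wif1-negative cells (0.68 ± 0.09, adjusted p = 2.23e-10). A Shh UMI was seen in 71.0% and 75.2% of Wif1-high and 61.1% and 53.1% of Wif1-negative cells, and in 10.7% and 10.0% of the cells past the suprabasal limit. Because Shh overlaps antisense genes and the strand setting is not given in the sources used here, reads of the 2 strands could not be told apart.

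Genes that Hedgehog signalling switches on stood further apart. Its receptor and target Ptch1 (chromosome 13, 63508328 to 63573598, minus strand) had 78.4 and 75.3 CPM in Wif1-high cells and 27.7 and 22.0 CPM in Wif1-negative cells (1.54 ± 0.14). The target and transcription factor Gli1 had 28.1 and 36.5 CPM against 11.1 and 14.0 CPM (1.27 ± 0.20), a call lost under 3 of 19 alternative settings. Of 13 Hedgehog genes tested, 4 were higher, among them these 3, and 0 lower. The remaining 9, among them the signal transducer Smo, Gli2, Gli3 and the co-receptors Gas1, Cdon and Boc, lay between -0.55 and 0.55 and were not past the threshold. The list therefore had a negative median of -0.15 and a positive mean of 0.23, against a median of 0.00 and a mean of 0.04 over all tested genes. List counts here and below stand beside 5.15% higher and 5.45% lower over all tested genes, and no list was tested as a set.

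The start regions of Wif1, Nrp2 and Ptch1 are shown because Nrp2 and Ptch1 moved with the gene that defined the classes. Each is the 250 bases upstream of a start in RefSeq (GRCm38.p6), written 5′ to 3′ on the gene's strand: chr10:121033754-121034003 (plus) for Wif1, chr1:62703067-62703316 (plus) for Nrp2 and chr13:63565736-63565985 (minus) for Ptch1. The Ptch1 window lies inside the gene span given above, upstream of a start within it. It is not the region before the 5′ end of that span, which was not searched for this gene. Capitals mark CTTTGA, the core bound by TCF and LEF factors, searched on both strands.

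Wif1: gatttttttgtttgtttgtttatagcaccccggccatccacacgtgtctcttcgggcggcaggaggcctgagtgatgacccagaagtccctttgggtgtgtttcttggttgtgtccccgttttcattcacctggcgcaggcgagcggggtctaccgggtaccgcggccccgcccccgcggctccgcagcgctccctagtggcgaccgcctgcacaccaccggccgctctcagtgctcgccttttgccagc
Nrp2: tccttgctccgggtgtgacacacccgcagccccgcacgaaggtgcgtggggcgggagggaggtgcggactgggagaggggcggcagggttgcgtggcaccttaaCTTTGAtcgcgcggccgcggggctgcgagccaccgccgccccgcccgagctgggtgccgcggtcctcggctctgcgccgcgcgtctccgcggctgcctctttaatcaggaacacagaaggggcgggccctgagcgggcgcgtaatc
Ptch1: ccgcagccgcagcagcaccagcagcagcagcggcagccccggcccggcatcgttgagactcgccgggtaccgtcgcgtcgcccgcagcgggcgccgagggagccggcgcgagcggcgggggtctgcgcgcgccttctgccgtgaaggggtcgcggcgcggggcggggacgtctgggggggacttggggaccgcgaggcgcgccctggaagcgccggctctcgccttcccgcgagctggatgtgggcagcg

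Of the 3 windows only that of Nrp2 held CTTTGA, once. The motif was in such a window of 11.9% of the 379 higher genes and 12.3% of the 407 lower genes with an entry, against 12.02% of 7689 tested and 15.8% of 27025 genes. A GLI site, GACCACCCA on either strand, was in 0.264% of higher and 0% of lower genes, against 0.234% of tested genes, and in none of the 3 windows. The motif shares of called genes were thus close to those of all tested genes. The 2 motifs share no overlapping match in these windows.

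Wnt genes did not move one way. Of 13 Wnt feedback and target genes tested, 3 were higher (Nkd1, Ccnd1 and Lgr6), 3 lower (Myc, Rnf43 and Tnfrsf19) and 7 not past the threshold, with a median of -0.08. Axin2, a negative feedback gene of the pathway, was at 27.7 and 36.8 CPM in Wif1-high cells and 42.0 and 38.7 CPM in Wif1-negative cells (-0.40 ± 0.15). Lef1, a nuclear partner of beta-catenin, was at 305 and 275 CPM against 320 and 290 CPM (-0.17 ± 0.06), and the Wnt-induced factor Sp5 at 48.7 and 51.2 CPM against 33.3 and 39.7 CPM (0.35 ± 0.14). None of these 3 passed, at adjusted p of 0.0731, 0.0691 and 0.0917 (edgeR). Under alternatives chosen after seeing the data this varied. With a gate that left out Ltb only Sp5 of the 3 passed (0.75, edgeR adjusted p = 2.06e-05). Without cells with other suprabasal transcripts Axin2 (-0.52, 0.0232) and Lef1 (-0.31, 5.23e-04) passed and Sp5 did not. Without cells rich in fibroblast transcripts none of the 3 passed.

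The called Wnt targets rested on few UMIs or were sensitive to the processing. The antagonist Nkd1 had 12.7 and 6.36 CPM in Wif1-high cells against 1.98 and 5.67 CPM, so its difference came from library 1, and its call was lost under 9 alternatives. The cyclin Ccnd1 had 50.7 and 44.5 CPM against 28.5 and 25.0 CPM (0.74 ± 0.15) and lost its call under 4. The R-spondin receptor Lgr6 (0.68 ± 0.15) lost its call under 6, while Myc, with 5.55 and 6.69 CPM against 13.9 and 15.4 CPM (-1.34 ± 0.29), lost it under 1. Rnf43 and Tnfrsf19 lost theirs under 10 and 6.

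Apart from Wif1 itself, 3 of 7 secreted Wnt antagonists tested were higher and 0 lower. Sostdc1, which inhibits both Wnt and Bmp signals, had 263 and 220 CPM in Wif1-high cells and 126 and 111 CPM in Wif1-negative cells (0.93 ± 0.08, adjusted p = 1.76e-23). Dkk3, a divergent member of the Dickkopf family, had 22.2 and 17.1 CPM against 7.13 and 6.34 CPM (1.43 ± 0.26), and the binding protein Igfbp4 185 and 230 CPM against 138 and 160 CPM (0.39 ± 0.08). Dkk3 and Igfbp4 lost their calls under 1 and 3 alternatives. Dkk4, the antagonist used in the gate, went the other way, as given above.

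Among 11 Wnt ligand and secretion genes, 0 were higher and 3 lower, with a median of -0.24. Wnt16 had 4 and 2 UMIs (1.58 and 0.669 CPM) in Wif1-high cells and 26 and 63 UMIs (10.3 and 21.03 CPM) in Wif1-negative cells (-3.92 ± 0.42). Wnt7b was at 15.1 and 12.05 CPM against 25.8 and 22.0 CPM (-0.91 ± 0.21) and Wls, which carries Wnts to the cell surface, at 129 and 115 CPM against 149 and 151 CPM (-0.40 ± 0.08). The placode ligand Wnt10b was at 34.1 and 39.5 CPM against 40.8 and 44.1 CPM and was not past the threshold (-0.30 ± 0.14). With thinned cells Wnt7b turned to 0.016 and was not past the threshold, and in all its call was lost under 5 alternatives. Wls lost its call under 4.

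Of 24 Wnt receptors and nuclear factors, 3 were higher and 1 lower. The Groucho co-repressor Tle4 had 61.4 and 70.6 CPM in Wif1-high cells and 27.3 and 27.4 CPM in Wif1-negative cells (1.18 ± 0.14), and its relative Tle1 63.4 and 54.5 CPM against 46.0 and 25.7 CPM (0.65 ± 0.14). Ctnnb1, which encodes beta-catenin, differed by 0.15 ± 0.04. Tle1 and Ctnnb1 each lost their call under 4 alternatives. The receptor Fzd6 was lower by the fit at -0.55 ± 0.18, lost its call under 14 alternatives and stood at 0.0045 with thinned cells.

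Of 13 Fgf pathway genes beside Fgf20, 6 were higher and 2 lower, with a median of 0.33. Apart from Fgfr1, the higher genes were read-outs of Fgf signalling. Dusp6, an ERK phosphatase, had 786 and 752 CPM in Wif1-high cells and 535 and 449 CPM in Wif1-negative cells (0.56 ± 0.05, adjusted p = 9.97e-21), and the ETS factor Etv4 131 and 134 CPM against 94.3 and 79.8 CPM (0.52 ± 0.09). Etv1 (1.46 ± 0.34) and the inhibitor Spry4 (1.92 ± 0.47) were higher at low counts, with 18 and 23 UMIs of Spry4 against 8 and 2, and each lost its call under 3 alternatives. The lower genes were the carrier Fgfbp1, at 39.6 and 33.1 CPM against 72.5 and 55.7 CPM (-0.90 ± 0.13), and the inhibitor Spry2 (-0.84 ± 0.14), so 2 Sprouty genes lay on opposite sides. Etv4, Fgfbp1 and Spry2 lost their calls under 3, 1 and 4 alternatives.

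Of 19 Eda and NF-kB genes, 2 were higher and 2 lower. The NF-kB targets Tnfaip3 (0.77 ± 0.19) and Birc3 (0.88 ± 0.18) were higher, with calls lost under 6 and 2 alternatives. The activin inhibitor Fst had 15.8 and 11.0 CPM in Wif1-high cells and 40.8 and 25.7 CPM in Wif1-negative cells (-1.39 ± 0.19, adjusted p = 1.00e-09). The chemokine Cxcl10 was at 16.2 and 3.35 CPM against 11.5 and 19.0 CPM. Its 2 libraries lay on opposite sides, and its call (-0.84 ± 0.27) was lost under 10 alternatives.

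In the Bmp and Tgfb list of 22, 4 were higher and 3 lower. All 3 Tgfb ligands were among the higher ones. Tgfb2 had 107 and 107 CPM in Wif1-high cells and 69.0 and 67.1 CPM in Wif1-negative cells (0.56 ± 0.10), Tgfb1 99.1 and 85.7 CPM against 42.4 and 52.1 CPM (0.85 ± 0.11), and Tgfb3 15.5 and 12.7 CPM against 2.38 and 4.01 CPM (1.99 ± 0.34). The homeobox factor Msx2 was higher by 0.52 ± 0.17, lost under 10 alternatives. Beside Fst, 2 Bmp read-outs were lower. Id1 had 17.4 and 11.0 CPM against 28.1 and 26.0 CPM (-1.04 ± 0.20), and Id2 8.72 and 6.36 CPM against 19.4 and 11.3 CPM (-1.10 ± 0.27, lost under 6). Tgfb2, Tgfb3 and Id1 lost their calls under 3, 1 and 2 alternatives.

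In the Notch list of 12, the glycosyltransferases Mfng (2.11 ± 0.44) and Lfng (0.36 ± 0.13), which modify Notch receptors, were higher and Notch1 (-0.63 ± 0.14) lower. Mfng had 8.32 and 8.70 CPM in Wif1-high cells and 1.98 and 1.67 CPM in Wif1-negative cells. The call of Lfng was lost under 13 alternatives and that of Notch1 under 3.

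The hair follicle fate list held the largest share of higher members, 11 of 19 with 2 lower and a median of 0.31. Lhx2, a LIM homeobox factor of the placode, had 65.0 and 48.5 CPM in Wif1-high cells and 23.0 and 14.4 CPM in Wif1-negative cells (1.52 ± 0.16). Pthlh, the parathyroid hormone-like ligand made by follicle buds, had 231 and 226 CPM against 95.9 and 62.1 CPM (1.46 ± 0.09, adjusted p = 6.11e-38), and the zinc finger factor Trps1 179 and 201 CPM against 102 and 98.5 CPM (0.83 ± 0.08). Runx1 was higher by 0.87 ± 0.21 and lost its call under 8 alternatives. The 2 lower members were Sox4 (-0.14 ± 0.04) and Sox21 (-0.41 ± 0.14), whose calls were lost under 7 and 16.

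Sox9, a transcription factor that later marks follicle stem cell precursors, was higher in the same class as Shh. It had 41.6 and 38.1 CPM in Wif1-high cells and 12.7 and 15.02 CPM in Wif1-negative cells (1.41 ± 0.18, adjusted p = 6.44e-11). A Sox9 UMI was found in 38.2% and 37.2% of Wif1-high and 19.1% and 20.7% of Wif1-negative cells. The share was 71.4% and 60.0% in cells past the suprabasal limit, which therefore give no background for Sox9. With a gate that left out Ltb, an alternative chosen after seeing the data, the Sox9 call was lost.

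Of 31 guidance cues and receptors tested, 6 were higher, 0 lower and 25 not past the threshold, with a median of 0.17. Over all tested genes 5.15% were higher and 5.45% lower. With thinned cells 2 of 26 were higher, and in cells with 0 Mki67 UMIs 2 of 26. Beside Nrp2, the Slit receptor Robo2 had 25.0 and 30.4 CPM in Wif1-high cells and 13.9 and 13.4 CPM in Wif1-negative cells (0.94 ± 0.20), the secreted semaphorin Sema3d 72.9 and 76.3 CPM against 42.8 and 45.4 CPM (0.66 ± 0.12), and the membrane semaphorin Sema5a 24.2 and 32.8 CPM against 14.7 and 15.7 CPM (0.82 ± 0.19). The calls of Robo2 and Sema5a were lost under 5 and 7 alternatives and that of Sema3d under 2.

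Of 23 basement membrane and integrin genes, 5 were higher, 1 lower and 17 not past the threshold, with a median of 0.33. Over all tested genes 5.15% were higher and 5.45% lower. With thinned cells 2 of 19 were higher, and with a gate score of 8 or more 2 of 22, with 0 lower in both. Frem2, part of the Fraser complex under the epidermis, had 113 and 110 CPM in Wif1-high cells and 58.3 and 56.4 CPM in Wif1-negative cells (0.87 ± 0.10), and its partner Frem1 75.7 and 78.6 CPM against 49.1 and 56.1 CPM (0.45 ± 0.11). Fibronectin (Fn1) had 114 and 132 CPM against 77.7 and 85.8 CPM (0.50 ± 0.09). The integrin Itgb8, which activates latent Tgfb, had 12.7 CPM in each library against 2.38 and 3.00 CPM (2.11 ± 0.36). The fifth was the collagen Col4a1 (0.38 ± 0.13), and the lower gene was the integrin Itgb5 (-0.32 ± 0.09). Their calls were lost under 12 and 10 alternatives, that of Frem1 under 6 and that of Fn1 under 3.

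**Figure D4:**
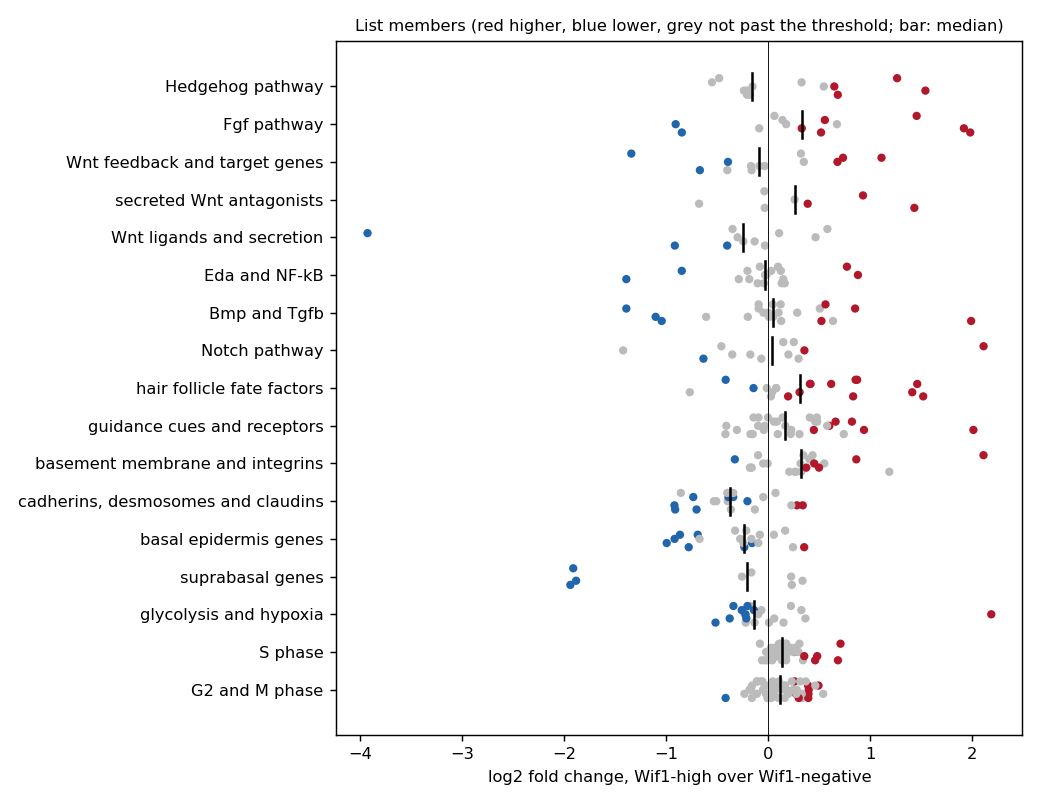
Log2 fold change of Wif1-high over Wif1-negative cells (x axis) for the tested members of 17 gene lists, with black bars at the list medians, red points higher, blue points lower and grey points not past the threshold. The hair follicle fate list has 11 red points of 19 and the cadherin, desmosome and claudin list 7 blue points of 20.

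Of 20 listed cadherins, desmosome genes and claudins, 2 were higher, 7 lower and 11 not past the threshold in Wif1-high cells, with a median of -0.38. Cldn10, the claudin furthest up, and the adhesion gene Ncam1 are not in this list and lay on the other side. E-cadherin (Cdh1) had 28.5 and 21.1 CPM in Wif1-high cells and 42.0 and 33.4 CPM in Wif1-negative cells (-0.70 ± 0.16), Cldn4 40.4 and 50.5 CPM against 91.1 and 55.1 CPM (-0.73 ± 0.13) and Cldn7 12.3 and 16.4 CPM against 28.1 and 23.4 CPM (-0.91 ± 0.20). The higher genes of the list were P-cadherin (Cdh3, 0.34 ± 0.08), the cadherin typical of placodes, and the desmosome plaque gene Dsp (0.28 ± 0.08). The calls of Cdh1, Cldn7 and Dsp were lost under 5, 5 and 9 alternatives, and those of Cldn4 and Cdh3 under 3 and 2. Without the library block 0 of the 20 genes passed in either direction.

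Of 19 basal epidermis genes 1 was higher and 7 lower. Krt15, a keratin of basal cells, had 197 and 148 CPM in Wif1-high cells and 319 and 286 CPM in Wif1-negative cells (-0.92 ± 0.07, adjusted p = 6.09e-27). The other basal keratins moved little, Krt5 by -0.23 ± 0.06 and Krt14 by -0.16 ± 0.04, and lost their calls under 9 and 11 alternatives. The integrin subunit Itga6 (-0.78 ± 0.15), the growth factor Igf2 (-0.99 ± 0.17) and the LIM-only factor Lmo1 (-0.86 ± 0.12) were lower, and the chemokine Cxcl14 was the higher one (0.35 ± 0.04). Krt17, a keratin of skin appendages, had 1468 and 1279 CPM in Wif1-high cells against 886 and 625 CPM (0.79 ± 0.04, adjusted p = 1.44e-40), while the simple epithelial keratin Krt18 was lower (-0.89 ± 0.17), most clearly in library 2.

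Genes at 20 CPM or more in Wif1-negative cells with the largest decreases had varied roles. Slc1a3, a glutamate transporter (chromosome 15, 8634124 to 8710764, minus strand), had 28.1 and 25.4 CPM in Wif1-high cells and 111 and 95.8 CPM in Wif1-negative cells (-2.04 ± 0.13, adjusted p = 4.74e-36). Gadd45g, a stress-induced growth arrest gene (chromosome 13, 51846678 to 51848468, plus strand), had 30.5 and 30.8 CPM against 114 and 98.5 CPM (-1.87 ± 0.12). The metallothioneins Mt1 and Mt2 had 208 and 187 CPM against 432 and 546 CPM (-1.41 ± 0.06) and 362 and 348 CPM against 919 and 1036 CPM (-1.56 ± 0.05). The insulin-like growth factor binding protein Igfbp2 had 56.3 and 61.6 CPM against 159 and 155 CPM (-1.50 ± 0.10). Both libraries lay on the same side for each of these 5 genes, as the rule that named them requires.

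Sprr2a3, a cornified envelope gene, had 0 UMIs in the Wif1-high cells of both libraries, against 80 and 57 UMIs (31.7 and 19.0 CPM) in Wif1-negative cells. Against a floor of 3 UMIs per library it was at least 26.7-fold and 19.0-fold lower. It belongs to a family of near-identical copies, so the counts of single copies are uncertain. Endou (-2.16 ± 0.20) and dermokine (Dmkn, -1.88 ± 0.11), both expressed in differentiating epidermis, and the serpin Serpinb10 (-1.60 ± 0.17) were lower as well. So were the histone gene Hist1h2bc (-2.31 ± 0.19) and the interferon-inducible Ifi202b (-2.02 ± 0.28). Hist1h2bc and Ifi202b have close copies, and Serpinb10 overlaps Serpinb2, so how their reads were assigned is uncertain.

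Suprabasal transcripts other than those of the gate moved with the classes. Of 8 suprabasal genes tested 0 were higher and 3 lower, Dmkn, the differentiation factor Zfp750 (-1.91 ± 0.36) and Grhl3 (-1.94 ± 0.40). Cells with 2 or more UMIs per 10000 from 8 other suprabasal genes were 6.11% and 8.97% of Wif1-high and 32.8% and 26.2% of Wif1-negative cells. Without such cells 368 genes were higher and 351 lower, 338 and 326 of them the same as before. Slc1a3 was then at -1.87 ± 0.14 and Endou at -1.84 ± 0.23, and of the suprabasal list, from which this filter takes cells and genes, only 2 genes were still tested, so that it says nothing on the rest of the list. Periderm markers moved the same way, with Sfn (-0.40 ± 0.06) and Cldn4 lower of 3 tested and sums of 315 and 308 CPM in Wif1-high against 447 and 356 CPM in Wif1-negative cells. The part of these transcripts in the other differences was not tested beyond that filter.

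Transcripts of fibroblast type also differed. The 8 measured fibroblast markers summed to 1084 and 983 CPM in Wif1-high cells and 1722 and 1521 CPM in Wif1-negative cells. Nearly all of this was Dcn, at 771 and 752 CPM against 1085 and 1021 CPM (-0.56 ± 0.04), and Postn, at 294 and 214 CPM against 628 and 490 CPM (-1.24 ± 0.06), while Lum, at 18 and 12 UMIs against 3 and 4, was higher. Without cells above the median of these markers, 183 genes were higher and 151 lower, 166 and 145 of them the same as before. The markers of melanoblasts, endothelium, immune cells, muscle, erythroid cells and Merkel cells had 0 tested members, and each of these lists summed to at most 6.69 CPM in either class. Of the Schwann markers, Erbb3 was lower (-0.77 ± 0.26), a call lost under 16 alternatives.

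Ribosomal protein genes were lower by small amounts. Of 99 ribosomal protein genes, a group chosen after its values were seen, 0 were higher and 81 lower, with a median of -0.19, and they took 29.2% and 30.9% of UMIs in Wif1-high cells against 31.3% and 33.6%. With library sizes alone as scaling 63 were lower at a median of -0.10, and without the library block 1 was. Mitochondrial transcripts took 3.27% and 3.13% of UMIs in Wif1-high cells against 3.11% and 3.05% in Wif1-negative cells. Of 21 glycolysis and hypoxia genes 1 was higher, Aldoc (2.19 ± 0.52), and 8 lower, among them Ldha at 409 and 431 CPM against 480 and 515 CPM (-0.34 ± 0.05). The median of this list was -0.14 and turned to -0.04 with library sizes alone, where 3 were lower.

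Among cell cycle genes, those of G2 and M phase gave no direction that held. In the matched cells 6 of 42 S phase genes were higher and 0 lower, with Cdc45 and Cdc6 furthest up, and of 52 G2 and M phase genes 8 were higher and 1, Ccnb2, lower (-0.42 ± 0.10). Without matching, 0 of the G2 and M genes were higher and 40 lower, and with thinned cells, which were also unmatched, 0 and 15. The S phase median stayed positive, at 0.14 in the matched cells, 0.06 without matching and 0.11 with thinned cells. S phase calls were 5 higher and 1 lower without matching, and 2 and 0 with thinned cells. Cdk1, Nusap1 and Aurkb changed sign between these settings. The calls of Cdc45, Cdc6 and Ccnb2 were lost under 9, 10 and 8 alternatives. Mki67 itself stood at 112 and 141 CPM in matched Wif1-high cells against 88.0 and 109 CPM, since only its presence was matched. Of 14 cell cycle inhibitors 0 were higher and 2, Gadd45g and Btg1 (-0.23), lower. Cdkn1a was at 13.9 and 10.4 CPM against 11.1 and 7.01 CPM and was not past the threshold (0.34 ± 0.28). Of 5 D-type cyclin genes Ccnd1 was higher and Ccnd2 (-0.22 ± 0.04) lower.

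The actomyosin list was split, with 4 of 30 genes higher and 5 lower. Vimentin (Vim, 0.64 ± 0.10), the WAVE complex subunit Cyfip2 (0.65 ± 0.11), the transgelin Tagln2 (0.52 ± 0.09) and ezrin (Ezr, 0.35 ± 0.08) were higher. The actins Actb and Actg1, Myl12a, cofilin (Cfl1) and Wasf2 were lower with log2 fold changes from -0.28 to -0.20. The call of Wasf2 was lost under 17 alternatives and that of Ezr under 6. Of 17 dissociation and stress genes 2 were higher, Klf6 and Hspa8, and 2 lower, Atf3 and Hsp90aa1, with a median of -0.14. In that order their calls were lost under 14, 8, 8 and 6 alternatives.

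Cells left out of the fit gave a view of the same genes. In Wif1-intermediate cells, summed over both libraries' gated cells, the level lay between those of Wif1-high and Wif1-negative cells for 93.0% of the higher and 83.9% of the lower genes, and for 45.2% of genes not past the threshold. Called genes were chosen for a gap between their classes, into which a further value falls more readily, so these shares are a description. Nrp2 stood at 64.6 and 84.7 CPM, Gadd45g at 57.8 and 48.3 CPM and Shh at 100 and 96.3 CPM in Wif1-intermediate cells.

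The total epithelium library held 9 Wif1-high and 18 Wif1-negative gated cells. There 108 cells reached the gate score, and 73 of them lay past the suprabasal limit, as did 1314 of all 1592 cells. With 1 library there is no test. Of the called genes with 10 or more UMIs there, 241 of 292 higher genes (82.5%) and 362 of 481 lower genes (75.3%) lay on the same side, and 55.1% of 4975 genes not past the threshold. Lhx2 had 78.1 CPM in Wif1-high cells (95% exact Poisson interval 39.0 to 140) and 7.81 CPM in Wif1-negative cells (1.61 to 22.8), Pthlh 227 (155 to 321) against 36.4 CPM (19.9 to 61.2) and Krt17 1746 (1535 to 1978) against 401 CPM (340 to 469). Gadd45g had 7.10 (0.180 to 39.5) against 109 CPM (78.8 to 148), and Igfbp2 92.3 (49.1 to 158) against 372 CPM (314 to 439). Slc1a3 was at 85.2 (44.0 to 149) against 112 CPM (81.0 to 151), within counting error. A Cldn10 UMI was in 4 of 9 Wif1-high and 0 of 18 Wif1-negative cells, which allows a share of up to 16.7% by the limit of 3 counts.

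**Figure D5:**
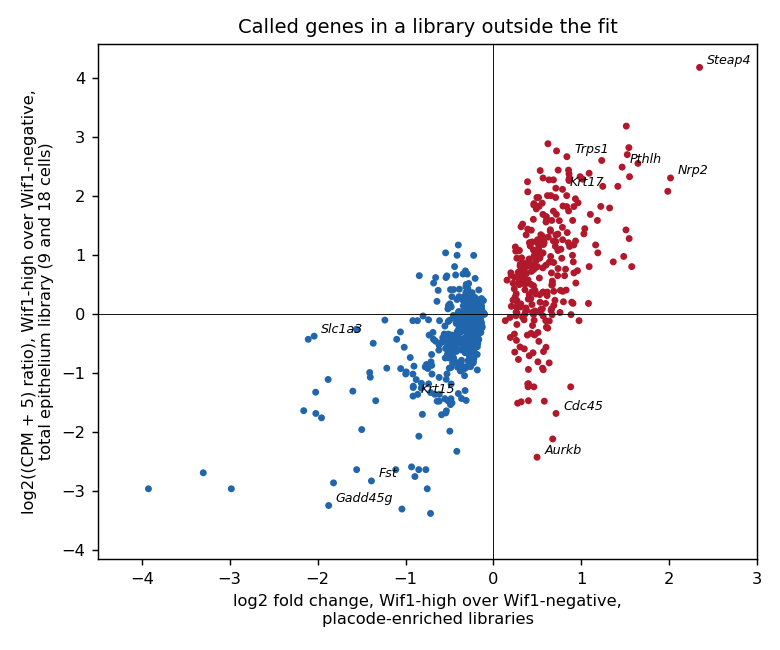
Log2 fold change in the placode-enriched libraries (x axis) against the log2 ratio of CPM plus 5 in the total epithelium library (y axis), Wif1-high over Wif1-negative, for called genes with 10 or more UMIs there. Of the red (higher) points 241 of 292 lie above 0 and of the blue (lower) points 362 of 481 lie below, with Sprr2a3 beyond the left edge.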

How the data were processed

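Single-cell RNA of 3 libraries was measured with 10x Genomics Chromium 3' chemistry, per the labels' protocols. The authors deposited UMI counts per gene and cell as whole numbers, and the submitters' processing notes name Cell Ranger, Seurat and mm10, with no version. Sources used here give neither annotation nor strand setting nor cell filters. Placode-enriched cells stood in a single table, where the digit after the cell barcode was read as the library number; were the digits swapped, only the library names would change. The tables held 15900 and 14959 genes.

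Scrublet (scanpy 1.11.5, expected rate 0.05) marked 7, 2 and 9 cells as doublets, so doublets can remain. Matching was an optimal assignment within library and Mki67 status, with depths within 0.05 on the log10 scale. Counts were summed into 4 library and class groups and tested with edgeR 4.0.16 (R 4.3.3) by its quasi-likelihood test, with TMM scaling and filterByExpr. The library was a block because both classes came from the same libraries (correlation of same-library deviations 0.211). Adjustment was that of Benjamini and Hochberg over all genes, without the 10 genes of the gate, the class and the matching. In a simulation of this comparison 98.5% of 200 genes changed by a log2 of 1 were recovered among 9816 fitted, with 8 unchanged genes called. Only genes above a limit of expected counts were changed, and counts were drawn with the spread estimated from the same sums. The simulation therefore checks the workings of the fit and does not bear on genes with low counts or smaller changes. DESeq2 1.42.0 was an alternative.

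Named genes were the 15 with the largest and the 12 with the smallest log2 fold change past the threshold, on 1 side in both libraries and at 20 CPM or more, 22 genes listed by name, and up to 4 called members of each of 32 lists. Where 5 or fewer list members were called in a direction, those outside this rule (17 genes) were added after their values were seen, as were the Hedgehog genes not past the threshold. The cells, genes and lists were chosen with earlier results of these data known. Gene positions are from GENCODE M21, and promoter sequences were matched by symbol in RefSeq, where Fgfr1, Gli1, Sox9 and Shh had no entry in the table used. A few genes that this rule or these lists hold are not reported here. Intervals and floors cover counting error only.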

Additional observations from a re-analysis of the deposited data

Results flagged for a closer look

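For 15 named genes the total epithelium library went against both placode-enriched libraries. There the log2 ratio of CPM plus 5, Wif1-high over Wif1-negative, rests on 9 and 18 unmatched cells of 1 library, and the difference from the placode-enriched libraries was not tested. The cell cycle genes Aurkb (-2.42), Cdc45 (-1.68), Nusap1 (-1.18) and Cdk1 (-0.94) were lower there and higher in the matched cells of both placode-enriched libraries, as were Ung (-0.11), Hspa8 (-0.11) and Birc3 (-0.011). The reverse was seen for Sox21 (0.99), Spry2 (0.65), Actg1 (0.33), Myl12a (0.26), Btg1 (0.15), Cfl1 (0.092), Ccnd2 (0.067) and Actb (0.039), which were higher there and lower in both placode-enriched libraries. The Wif1-high and Wif1-negative cells of the total epithelium library had a Mki67 UMI in 44.4% and 38.9% of cells.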

How the results depend on the processing

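Of 120 named genes tested 114 were past the threshold, 42 of them under every setting that gave an adjusted p and 5 more with only DESeq2 or the fit without the library block failing. DESeq2 gave no adjusted p for 29 of the 114. Calls given above without a count of lost settings can also depend on the setting. Without the replicate block, that is without the pairing of classes by library, 187 genes were higher and 85 lower (68.8% of calls higher), and with DESeq2 61 and 147 (29.3%). Higher and lower counts were 167 and 260 with cells thinned to 5000 UMIs, 195 and 275 in cells with 0 Mki67 UMIs, 223 and 281 with a gate score of 8, and 183 and 151 without cells rich in fibroblast markers. The higher count was 331 with a Wif1 limit of 3, and the lower count 351 without cells with other suprabasal transcripts and 289 with library sizes alone. The fibroblast and suprabasal filters and the gate without Ltb (377 and 464) were chosen after seeing the data. Fewer cells or fewer UMIs entered the filtered and thinned fits, and the thinned fit was also unmatched. The cause of the changes was not tested.

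Signs turned with thinned cells, which were not matched, for Wnt7b (0.016), Fzd6 (0.0045), Aurkb (-0.33), Nusap1 (-0.50) and Cdk1 (-0.15). They turned without matching for Aurkb (-0.31), Nusap1 (-0.50) and Cdk1 (-0.40), and in cells with 0 Mki67 UMIs for Nusap1 (-0.74) and Cdk1 (-0.10). Cxcl10 was at 0.28 with a Wif1 limit of 3, at 0.12 without cells with other suprabasal transcripts and at 0.41 in library 1 alone (-2.45 in library 2 alone), and Atf3 at 0.090 with a Wif1 limit of 3. At 5000 UMIs, Wif1-high cells were 35.1% and 40.0% of gated cells in libraries 1 and 2, and cells with 0 Wif1 UMIs 64.9%, 60.0% and, in the total epithelium library, 71.4%. With either placode-enriched library left out no residual degree of freedom remained, so that only ratios, with no test, could be had. Depth limits the genes under about 20 CPM and every statement on a cell with 0 UMIs.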
